A study of Homo sapiens with 51 samples.

Results

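The DLK1-MEG3 imprinted domain on chromosome 14 was followed by ATAC-seq, in which a transposase cuts and tags open DNA, so that the count of a region measures its accessibility. The domain was taken as 5 genes, DLK1, MEG3, RTL1, MEG8 and DIO3, of 38151 coding and lncRNA genes in RefSeq. A region belonged to it when the nearest RefSeq gene end, within 50 kb of the region, was an end of one of these genes. These genes were chosen on measured values, the higher counts near MEG3 and DLK1 in WT cells on the later days of SMADi, so the WT time course under SMADi is described here and carries no test. The rule took 17 of 100584 regions at day 0, 24 of 142087 under BMP4 and 37 of 162317 under SMADi. The member farthest from a gene end lay 42.2 kb away, and no region nearest to these genes fell beyond the limit.

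All libraries came from H1 human embryonic stem cells, an established line, of 3 genotypes: WT, KO and ΔATG, the last written DATG here. Which gene was edited, whether an edited line is 1 clone and whether replicates a and b were separate cultures is not stated in the labels, so the p-values reflect library-to-library spread, which may be technical. There were 6 libraries of undifferentiated cells (day 0), 30 of cells given BMP4 for 1 to 5 days, labelled mesoderm, and 15 of cells given SMADi for 1, 4 or 5 days, labelled neuroectoderm. Each genotype had 2 libraries per day and treatment, except that KO at day 4, DATG at day 1 and DATG at day 5 of SMADi had 1 each. SMADi days 2 and 3 are not analysed here.

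An imprinted domain is one in which the copy from one parent is used and the other is kept silent. On the paternal chromosome of this domain the protein-coding genes DLK1, RTL1 and DIO3 are used, and on the maternal chromosome the long noncoding RNAs MEG3 and MEG8 are used, under methylation marks that lie between DLK1 and MEG3 and at the MEG3 promoter. DLK1 is a membrane protein related to Notch ligands, RTL1 is a retrotransposon-derived protein of the placenta and muscle, and DIO3 is the deiodinase that inactivates thyroid hormone. MEG3 is known for its loss or silencing in some pluripotent stem cell lines. Counts of ATAC fragments do not separate the parental copies, and in bulk cells a change in fewer cells and a smaller change in every cell cannot be told apart.

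The domain ran from the start of DLK1 to the end of DIO3, over 836561 bp in GRCh38. Many regions in this span were nearest to other genes and were left out. These were 23 of 34 at day 0, 34 of 50 under BMP4 and 38 of 66 under SMADi. A region of the domain here therefore means a member under the rule above, not every region of the span. DLK1 occupied chr14:100726892-100738224, MEG3 chr14:100826108-100861026, RTL1 chr14:100879753-100903722, MEG8 chr14:100889649-100999113 and DIO3 chr14:101561495-101563452. RTL1 and MEG8 overlap, so several RTL1-linked regions also lay in the body of MEG8. The annotation used here gives gene ends only, so positions inside a gene are not assigned to exons or introns. The promoters of MEG3 and DIO3 are printed from RefSeq (GRCh38.p14): the DIO3 promoter holds the most accessible region of the domain at day 0, and the MEG3 promoter, which holds none, starts the gene with the most linked regions under SMADi. Each runs from 250 bases before to 50 after the gene start, 5′ to 3′ on the gene's strand, with the motif matches in capitals.
MEG3 promoter: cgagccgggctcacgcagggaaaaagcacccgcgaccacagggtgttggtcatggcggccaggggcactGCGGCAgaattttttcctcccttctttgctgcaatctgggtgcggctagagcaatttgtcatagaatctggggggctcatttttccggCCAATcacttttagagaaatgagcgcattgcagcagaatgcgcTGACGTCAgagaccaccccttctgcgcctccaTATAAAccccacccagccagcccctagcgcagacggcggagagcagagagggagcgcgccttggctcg
DIO3 promoter: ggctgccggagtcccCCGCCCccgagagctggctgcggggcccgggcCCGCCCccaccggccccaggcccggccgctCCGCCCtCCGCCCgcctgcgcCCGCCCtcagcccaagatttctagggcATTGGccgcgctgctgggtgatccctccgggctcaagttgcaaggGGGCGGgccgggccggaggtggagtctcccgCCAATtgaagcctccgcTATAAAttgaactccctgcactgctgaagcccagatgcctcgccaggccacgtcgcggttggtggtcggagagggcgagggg

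The MEG3 promoter (chr14:100825858-100826157) is 59.0% GC with 19 CpG dinucleotides, and the DIO3 promoter (chr14:101561245-101561544) is 73.0% GC with 28. The median over 34943 RefSeq promoters is 58.7% GC and 14 CpG. Motifs were searched on both strands, and none of the matches overlap. In the MEG3 promoter the first capitals mark TGCCGC, the core recognised by the imprint-keeping factor ZFP57, read on the minus strand, and 16.71% of all promoters hold it. Further on are the CCAAT box, held by 34.648% of promoters, the cAMP response element TGACGTCA, held by 1.837%, and the TATA box TATAAA, held by 11.57%. The DIO3 promoter holds 6 copies of the GC box GGGCGG, a motif of 44.867% of promoters, with 2 CCAAT boxes and 1 TATA box. The CTCF core motif, which matches in 0.066% of promoters, had no match in either window. The 201-bp DIO3 region lies wholly inside the printed DIO3 promoter in all 3 tables. No region overlaps the printed MEG3 promoter, and the nearest one lay 1761 bp (day 0), 1766 bp (BMP4) or 1760 bp (SMADi) upstream of the MEG3 start.

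Library totals ranged from 4616521 to 7516259 counts on day 0, from 4019778 to 13850448 with BMP4 and from 7086918 to 23252871 with SMADi. Levels are given as CPM, counts scaled to library size with TMM within each table. All regions are 201 bp long, so their CPM can be compared within a table. 1 library went against its label. At 14 regions lower and 26 regions higher in KO than in DATG under BMP4 (by more than 2 on the log2 scale), replicate b of KO at SMADi day 1, as labelled, had medians of 5.58 and 0.757 CPM. The DATG day 1 library had 6.56 and 0.872, and KO day 1 replicate a had 0.471 and 5.06. For KO changes and averages under SMADi that use day 1, values without that library are given below for the regions and sums named. Summed regions of 7 pluripotency genes moved with the comparisons below: they held 331.1 to 348.5 CPM in WT at day 1 of SMADi and 203.1 to 228.2 at day 5, against 172.8 to 180.7 in KO and 183.9 in DATG at day 5. The sum for 7 neuroectoderm genes was 695.1 to 731.7 CPM in WT and 806.5 to 813.9 in KO at day 5 of SMADi. No marker of either list was at 0, and the part of cell state in the results was not tested.

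In undifferentiated cells no region of the domain was called different between the genotypes. The DIO3 promoter region was the most accessible member, at 17.63 and 21.19 CPM in WT, 22.47 and 18.89 in KO and 19.54 and 16.31 in DATG. The MEG3 region 25.2 kb inside the gene (chr14:100851207-100851407) held 9.15 and 8.62 CPM in WT, 8.25 and 9.99 in KO and 14.88 and 11.61 in DATG. Next came the region 1761 bp upstream of MEG3, at 9.55 and 8.08 CPM in WT, 10.7 and 7.82 in KO and 8.11 and 9.25 in DATG. At these regions the libraries of the 3 genotypes overlapped, apart from DATG at the 25.2 kb region, where both libraries lay above the others. Regions at the start of DLK1 stood at 3.05 to 4.39 CPM over all 6 libraries. No member region passed the test (edgeR quasi-likelihood, Benjamini-Hochberg adjusted p under 0.05) between KO and WT, where 0.0855% of all regions did, or between DATG and WT, where 0.206% did. DESeq2 called none in either comparison, and 1 of 17 had an unadjusted p under 0.05 in each. Among the 4 genes with a linked region at day 0, log2 differences of the summed counts ran from -0.24 ± 0.13 (SE, RTL1) to 0.03 ± 0.12 (DIO3) in KO and from 0.02 ± 0.11 (DIO3) to 0.17 ± 0.12 (RTL1) in DATG, with 2 libraries per group, and none was called, where 0.191% and 0.332% of all genes were. Data were simulated for KO against WT at day 0, with 200 of 20000 regions changed. The test found 50% of the true differences of 1 (log2) and 6% of those of 0.5, so differences of that size could go undetected at this depth. In the data 0.0855% of all regions were called in KO, a smaller share than was changed in the simulation, so detection can differ from these rates.

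Of the 17 day 0 members, 15 overlapped a member of the BMP4 table by at least 100 bp (88.2%, or 62.5% of the 24) and 16 a member of the SMADi table (94.1%, or 43.2% of the 37). Over all regions these shares were 92.3% and 65.4% between day 0 and BMP4, and 90.8% and 56.3% between day 0 and SMADi. A further 15 SMADi members (40.5%) had no counterpart in the other tables, against 26.9% of all SMADi regions. Of the 15, 6 were near MEG3 and 4 near DLK1.

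Under SMADi, accessibility inside MEG3 rose in both mutant lines between days 1 and 5, and the WT libraries, which chose the genes, followed the same course. The region 4.7 kb inside the gene (chr14:100830725-100830925) held 0.42 and 0.39 CPM in WT at day 1, 17.03 and 17.06 at day 4 and 23.38 and 23.17 at day 5. In KO this region held 0.86 and 0.28 CPM at day 1, 27.47 at day 4 and 28.77 and 28.23 at day 5, and in DATG 0.58 at day 1, 25.87 and 27.48 at day 4 and 27.83 at day 5. All libraries of days 4 and 5 lay far above all libraries of day 1, and each mutant library of those days lay above each WT library of the same day. The log2 change from day 1 to day 5 was 5.67 ± 0.25 (SE) in KO (edgeR adjusted p = 1.146e-21) and 5.56 ± 0.36 in DATG (adjusted p = 1.613e-15). Without the KO day 1 library in doubt it was 5.02 ± 0.31 in KO.

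**Figure D1:**
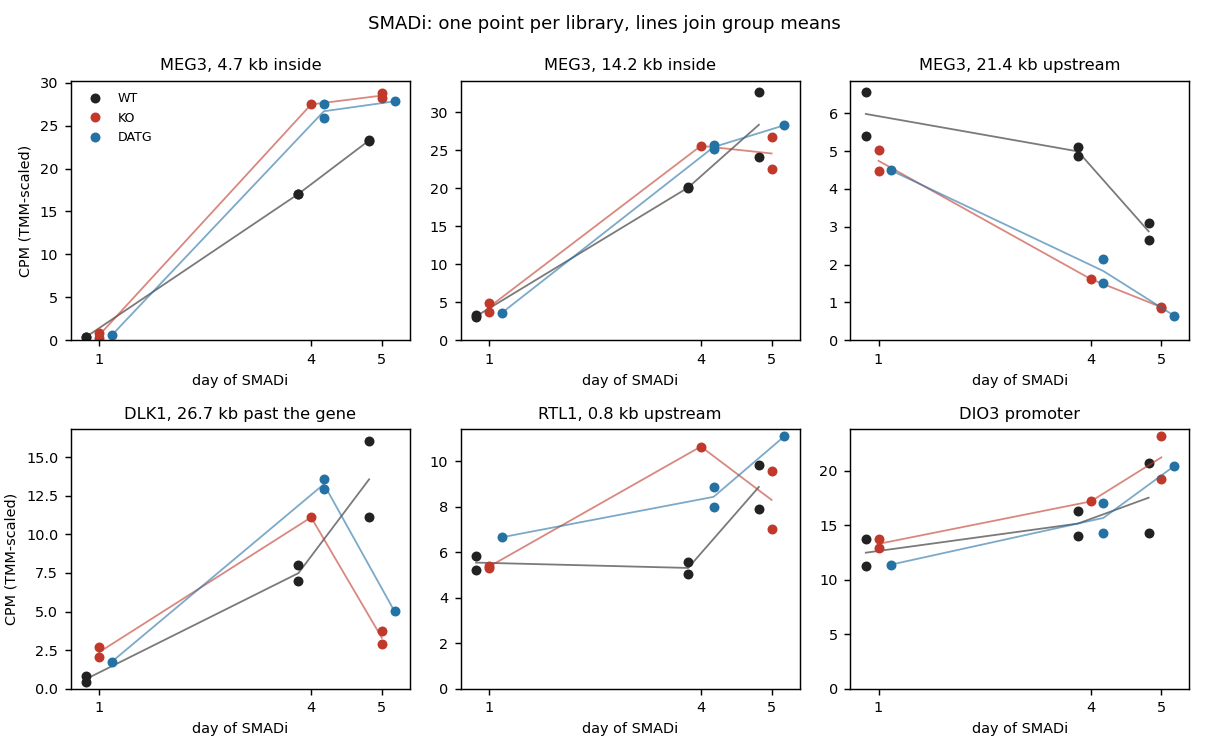
CPM (TMM-scaled) of 6 regions of the domain by day of SMADi. Points are libraries, lines join group means, and colours give WT, KO and DATG; the MEG3 region 4.7 kb inside the gene is at 0.86 CPM or less in every day 1 library and at 17.03 or more at day 4, while the DLK1 region 26.7 kb past the gene is lower in the mutant lines at day 5 than at day 4.

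A second region, 6.5 kb inside MEG3 (chr14:100832512-100832712), followed the same course. It held 0.90 and 0.78 CPM in WT, 0.71 and 0.55 in KO and 0.83 in DATG at day 1, and 16.61 and 18.33 in WT, 24.47 and 27.72 in KO and 25.56 in DATG at day 5. It rose by 5.37 ± 0.26 in KO (edgeR adjusted p = 8.489e-21) and by 4.93 ± 0.35 in DATG (adjusted p = 1.34e-14), with 5.18 ± 0.35 in KO without the library in doubt. The region 14.2 kb inside MEG3 (chr14:100840246-100840446) was the most accessible SMADi member on average and was already open at day 1, with 3 and 3.31 CPM in WT, 4.94 and 3.72 in KO and 3.57 in DATG. At day 5 it held 32.64 and 24.09 CPM in WT, 26.69 and 22.48 in KO and 28.3 in DATG, and the genotypes overlapped. It rose by 2.51 ± 0.18 in KO (2.30 ± 0.24 without the library in doubt) and 2.98 ± 0.27 in DATG. A region 4.1 kb inside MEG3 had no count in the DATG day 1 library and 4.5 CPM at day 5, at least 18.06-fold higher against a floor of 3 counts in that library. The regions 4.1 and 6.5 kb inside MEG3, and those named below other than the most accessible and the start-nearest region of a gene, were chosen after their values were seen.

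Other MEG3-linked regions closed over the same days, so the gene's surroundings did not move in 1 direction. A region 21.4 kb upstream of MEG3, between DLK1 and MEG3 (chr14:100804653-100804853), held 5.41 and 6.56 CPM in WT at day 1, 4.88 and 5.11 at day 4 and 2.65 and 3.11 at day 5. In KO it held 5.02 and 4.47, then 1.62, then 0.86 and 0.89 CPM, and in DATG 4.49, then 2.15 and 1.51, then 0.65. Thus on days 4 and 5 the mutant libraries all lay below the WT libraries. It fell by 2.42 ± 0.34 in KO (edgeR adjusted p = 6.766e-08) and dropped by 2.77 ± 0.48 in DATG (adjusted p = 6.955e-06). The neighbouring region 20993 bp upstream and those 2.1 and 25.2 kb inside the gene also fell in both lines, though the first was not called by DESeq2 in DATG (adjusted p = 0.09132). The region nearest the MEG3 start, 1760 bp upstream, held 4.26 and 4.09 CPM in WT, 6.90 and 7.30 in KO and 4.57 in DATG at day 1 and 2.32 to 4.22 over the 5 libraries of day 5. It fell by 1.04 ± 0.28 in KO (adjusted p = 0.001302), but without KO day 5 replicate a the adjusted p was 0.0512. In DATG it did not pass the test. At the far end, 42.2 kb upstream of MEG3, a region with 0.00 to 0.71 CPM over the 5 libraries of day 1 held 6.45 to 12.79 over those of day 5 and rose in KO (3.93 ± 0.39) and DATG (5.98 ± 0.66). Without the library in doubt the KO values were -2.51 ± 0.40 at 21.4 kb upstream, -1.01 ± 0.34 at 1760 bp upstream (adjusted p = 0.01281) and 3.36 ± 0.49 at 42.2 kb upstream. The falls at 20993 bp upstream and at 2.1 and 25.2 kb inside the gene were then -2.04, -2.86 and -1.14, all called.

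**Figure D2:**
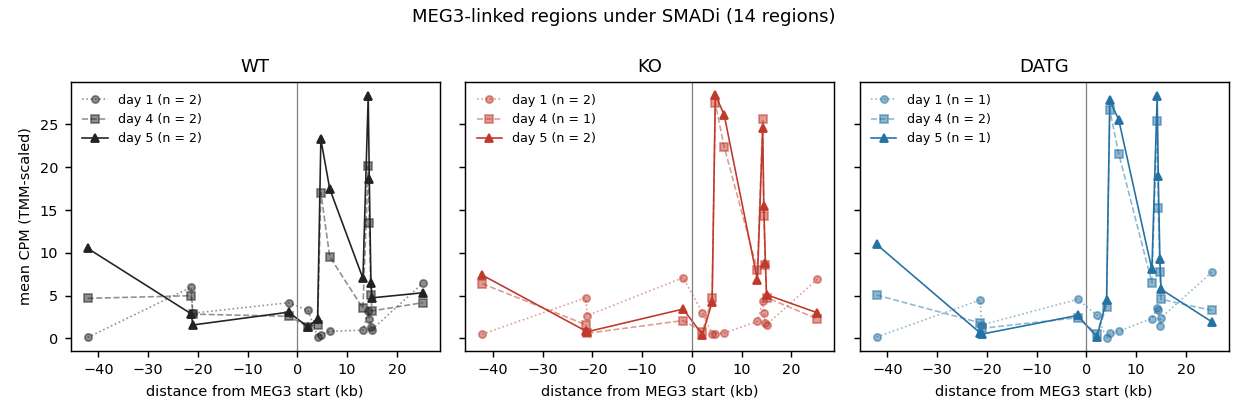
Mean CPM (TMM-scaled) of the 14 MEG3-linked SMADi regions against distance from the MEG3 start in kb, for WT, KO and DATG. Symbols give days 1, 4 and 5 and n is the number of libraries; lines only join the regions, which are separate. The regions 4.7, 6.5 and 14.2 kb inside the gene stand out on days 4 and 5, and those 21.4 and 21.0 kb upstream are lower at day 5 than at day 1.

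Over the whole domain, 20 members rose and 8 fell in KO between days 1 and 5, or 75.7% of 37, where 60.9% of all regions changed; in DATG 17 rose and 5 fell, or 59.5%, where 49.1% of all regions changed. The median log2 change of the members was 0.66 in KO and 0.74 in DATG, against 0.0086 and 0.0445 over all regions. Without the KO day 1 library in doubt 13 rose and 6 fell in KO, where 51.7% of all regions changed. Scaled by total counts instead of TMM, the split was 14 up and 9 down in KO and 15 up and 7 down in DATG. That scaling moved the median of all regions to -0.25 in KO and -0.10 in DATG. By genes, MEG3 had 9 regions up and 5 down in KO, while RTL1 had 5 up and none down of 8 and DIO3 2 up and 3 down of 7. The RTL1 and DIO3 counts, unlike the MEG3 counts, rested in part on the library in doubt. Without it the 5 RTL1 rises were 0.57, 0.82, 1.71, 0.61 and 0.98, against 0.81, 0.91, 1.19, 0.64 and 1.33 with it. Summed per gene, MEG3 rose by 1.61 ± 0.08 in KO (edgeR adjusted p = 9.136e-18) and 1.94 ± 0.11 in DATG (adjusted p = 6.768e-15), and the WT difference was 1.94. The KO rise was 1.52 ± 0.10 without the library in doubt (adjusted p = 3.956e-12). Over all genes 64.2% were called in KO and 50.6% in DATG. DLK1 rose by 0.51 ± 0.12 in KO (adjusted p = 0.0004016) and 0.81 ± 0.17 in DATG (adjusted p = 0.0001608), with 1.29 in WT. Leaving out the library in doubt gave 0.57 ± 0.16 in KO (adjusted p = 0.003331). With regions within 1 kb of a gene end alone, the DLK1 calls were lost (adjusted p = 0.09593 in KO and 0.3117 in DATG). RTL1 sums rose by 0.31 ± 0.12 in KO (adjusted p = 0.02154; 0.172 without the library in doubt) and 0.50 ± 0.16 in DATG (adjusted p = 0.01038). No library can be left out of the DATG change, which has 1 on each day.

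The most accessible DLK1-linked region lay beyond the gene and had WT lowest on days 1 and 4 and highest on day 5. The region 26.7 kb past the end of the gene (chr14:100764848-100765048) held 0.42 and 0.84 CPM in WT at day 1, 6.95 and 8.03 at day 4 and 16.03 and 11.12 at day 5. In KO it held 2.04 and 2.68 at day 1, 11.11 at day 4 and 3.72 and 2.87 at day 5. In DATG it held 1.74 at day 1, 12.95 and 13.57 at day 4 and 5.01 at day 5. On each day the WT libraries did not overlap with those of the mutant lines. Averaged over the 3 days, KO and WT did not differ by the test (0.16 on the log2 scale). Day by day, the log2 difference from WT in KO at day 1 was 1.91 ± 0.39 (1.68 ± 0.49 without the library in doubt). It was 0.82 ± 0.21 in DATG at day 4, and -2.01 ± 0.24 in KO and -1.40 ± 0.28 in DATG at day 5. These differences are given with no test, because the WT libraries of single SMADi days helped to choose DLK1 and MEG3. A region inside DLK1, 1.5 kb from its end, had the same order on days 4 and 5: 6.62 and 6.55 CPM in WT, 1.93 and 3.19 in KO and 3.2 in DATG at day 5, after 3.07 and 2.68 in WT, 5.59 in KO and 5.11 and 5.45 in DATG at day 4. The region at the DLK1 start (chr14:100726893-100727093) stayed between 2.35 and 5.94 CPM in all 15 libraries. In KO it went from 2.35 and 3.44 to 5.58 and 5.05 CPM, a rise of 0.86 ± 0.28 (adjusted p = 0.00788), which was lost without KO day 1 replicate a (adjusted p = 0.1302) and with total count scaling (adjusted p = 0.06026). Without the library in doubt the rise was 1.16 ± 0.38 (adjusted p = 0.00923).

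Among the paternally used genes, the sums of RTL1 and DIO3 rose less than those of DLK1. DLK1 was picked on its rise in WT, and the genes were not compared by a test. The RTL1 region with the highest mean, 810 bp upstream (chr14:100904432-100904632), held 5.23 and 5.85 CPM in WT at day 1, 5.57 and 5.04 at day 4 and 9.85 and 7.88 at day 5. In KO it held 5.41 and 5.30, then 10.64, then 7.01 and 9.58, and in DATG 6.65, then 8.87 and 7.99, then 11.09. Mutant libraries were above WT at day 4 and overlapped with it at day 5. The rise was 0.64 ± 0.22 in KO (edgeR adjusted p = 0.01089; 0.0672 without the library in doubt) and 0.74 ± 0.29 in DATG (adjusted p = 0.0328). The RTL1 region nearest its start, 762 bp inside the gene (chr14:100902860-100903060), held 1.33 to 3.24 CPM over the 5 libraries of day 1 and 1.91 to 4.44 over those of day 5, and it rose in KO by 1.19 ± 0.33 (adjusted p = 0.002001). This call was lost without KO day 1 replicate a (adjusted p = 0.07574) and was 1.71 ± 0.45 (adjusted p = 0.001742) without the library in doubt. The upstream call in KO was also lost without KO day 5 replicate b (adjusted p = 0.2181), and that in DATG with DESeq2 (adjusted p = 0.1042). Total count scaling removed the call at the upstream RTL1 region in both lines (adjusted p = 0.1247 in KO and 0.08389 in DATG).

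The DIO3 promoter region shown above (chr14:101561267-101561467) held 13.7 and 11.24 CPM in WT at day 1 and 20.73 and 14.3 at day 5. KO held 12.86 and 13.7, then 19.25 and 23.18, and DATG 11.38, then 20.41. It rose by 0.68 ± 0.17 in KO (edgeR adjusted p = 0.0006079) and by 0.84 ± 0.24 in DATG (adjusted p = 0.003586). A region 182 bp past the DIO3 end fell in both lines, by 0.90 ± 0.34 in KO and 1.11 ± 0.47 in DATG, and one 1557 bp past it rose in both, by 0.66 ± 0.26 and 1.33 ± 0.38. DESeq2 did not call the fall in either line (adjusted p = 0.06606 and 0.1208) or the rise in KO (adjusted p = 0.06664). Without the library in doubt the KO values were 0.71 ± 0.22 at the promoter (adjusted p = 0.006573) and -1.15 ± 0.40 at 182 bp (adjusted p = 0.01479), and the rise at 1557 bp lost its call (adjusted p = 0.06658). The summed DIO3 counts showed no called change (-0.08 ± 0.11 in KO and 0.23 ± 0.15 in DATG).

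Genotype differences under SMADi share the WT libraries used to pick the genes. The adjusted p-values of these averages for the member genes, here and in the next paragraph, are therefore not independent of that choice. Averaged over days 1, 4 and 5, 7 members were higher and 5 lower in KO than in WT (32.4% of 37, where 39.5% of all regions were called), and 6 were higher and 4 lower in DATG (27%, where 28.5% of all regions were called). Both shares are near the background. Scaled by total counts, the split was 5 higher and 6 lower in KO and 4 and 4 in DATG. The median log2 difference of the members was 0.24 in KO and 0.18 in DATG, against -0.0038 and -0.0125 over all regions. MEG3, which has 14 of the 37 members, had 8 of the 12 called regions in KO and 7 of the 10 in DATG. Because MEG3 was picked on those WT libraries, nothing is read from this share. The regions 21.4 and 21.0 kb upstream were lower, by 1.23 ± 0.20 and 1.17 ± 0.27 in KO (edgeR adjusted p = 4.369e-06 and 0.0007519) and by 1.34 ± 0.21 and 1.30 ± 0.28 in DATG (adjusted p = 4.419e-06 and 0.0004645). The region 25.2 kb inside the gene was also lower in both (-0.54 ± 0.16 and -0.52 ± 0.17), and that 13.2 kb inside was higher in both (0.73 ± 0.18 and 0.79 ± 0.20). Without the library in doubt these 4 KO values were -1.20, -1.07, -0.57 and 0.76, all called. Without the KO day 1 library in doubt, 6 were higher and 5 lower in KO. The region 6.5 kb inside MEG3, higher by 0.46 ± 0.17 in KO, lost its call (adjusted p = 0.06742), and that 4.7 kb inside kept it (0.69 ± 0.21, adjusted p = 0.009536, against 0.47 ± 0.19 with all libraries). Total count scaling ended both KO calls (adjusted p = 0.06578 and 0.08062), and DESeq2 ended that at 4.7 kb (adjusted p = 0.05597). They also depended on single libraries: without KO day 1 replicate a the adjusted p was 0.1758 and 0.7322, and leaving out WT day 1 replicate a (0.0587 and 0.101), WT day 1 replicate b (0.09321 and 0.1164), WT day 4 replicate a (0.05761 and 0.05595) or KO day 5 replicate b (0.06108 and 0.05667) also ended them. The 4.7 kb call ended as well without WT day 4 replicate b (0.06131) or KO day 5 replicate a (0.06119). The DATG call at 6.5 kb (0.57 ± 0.21) was lost with total count scaling (adjusted p = 0.06) and without WT day 1 replicate a (0.05576), WT day 1 replicate b (0.08448), WT day 4 replicate a (0.05457) or DATG day 4 replicate b (0.07685).

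Taken day by day, an alternative chosen after the values were seen and given with no test for the reason above, the 6.5 kb MEG3 region stood apart from WT most on day 4. Its log2 difference was then 1.23 ± 0.19 in KO and 1.18 ± 0.16 in DATG, against 0.57 ± 0.16 and 0.54 ± 0.19 at day 5. Day 1 alone gave 1 member past the threshold of 37 in KO and none in DATG, where 0.893% and 0.628% of all regions passed. The KO member was the DLK1 region 26.7 kb past the gene. It passed only with the library in doubt, without which the difference was 1.68 ± 0.49, against 1.91 with all libraries. Day 4 gave 11 and 14, against 24.9% and 30.6%, and day 5 gave 8 and 9, against 40.2% and 26.7%. These counts share the WT libraries of the choice, and nothing is read from them. Over the 3 days, summed counts showed MEG3 higher by 0.20 ± 0.05 in KO (adjusted p = 0.0008449) and 0.17 ± 0.05 in DATG (adjusted p = 0.01023), and RTL1 higher by 0.24 ± 0.07 (adjusted p = 0.006801) and 0.26 ± 0.08 (adjusted p = 0.009222), where 44.5% of all genes were called in KO and 33.7% in DATG. Without the library in doubt the KO values were 0.24 ± 0.05 (adjusted p = 0.0004674) and 0.28 ± 0.08 (adjusted p = 0.007732). The RTL1 call in KO was lost with regions within 1 kb of a gene end (adjusted p = 0.4218). DLK1 and DIO3 sums were not called over the 3 days. The log2 differences of the sums from WT are also given by day. MEG3 stood 0.41 ± 0.08 above WT in KO and 0.39 ± 0.07 in DATG at day 4, but at -0.08 ± 0.07 and 0.06 ± 0.08 at day 5. RTL1 stood at 0.55 ± 0.14 and 0.49 ± 0.11 at day 4 and at 0.06 ± 0.12 and 0.22 ± 0.14 at day 5. DLK1 stood at 0.33 ± 0.13 and 0.42 ± 0.11 at day 4 and at -0.58 ± 0.11 and -0.35 ± 0.13 at day 5. These values of single days are again given with no test.

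No member was called different between KO and DATG. Under SMADi 0.0598% of all regions were called, and under BMP4 1.84%. DESeq2 called none in either, and 2 of 37 and 3 of 24 had an unadjusted p under 0.05. No summed count was called either, where 0.0984% of all genes were under SMADi and 2.65% under BMP4. Summed MEG3 counts differed by 0.03 ± 0.05 under SMADi and 0.02 ± 0.06 under BMP4, and DLK1 by -0.09 ± 0.08 and 0.14 ± 0.07. The SMADi values include the KO day 1 library in doubt, which resembled DATG. Without it they were 0.06 for MEG3 and -0.10 for DLK1. Single regions were less precise, with a median SE of 0.206 under SMADi and 0.128 under BMP4.

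**Figure D3:**
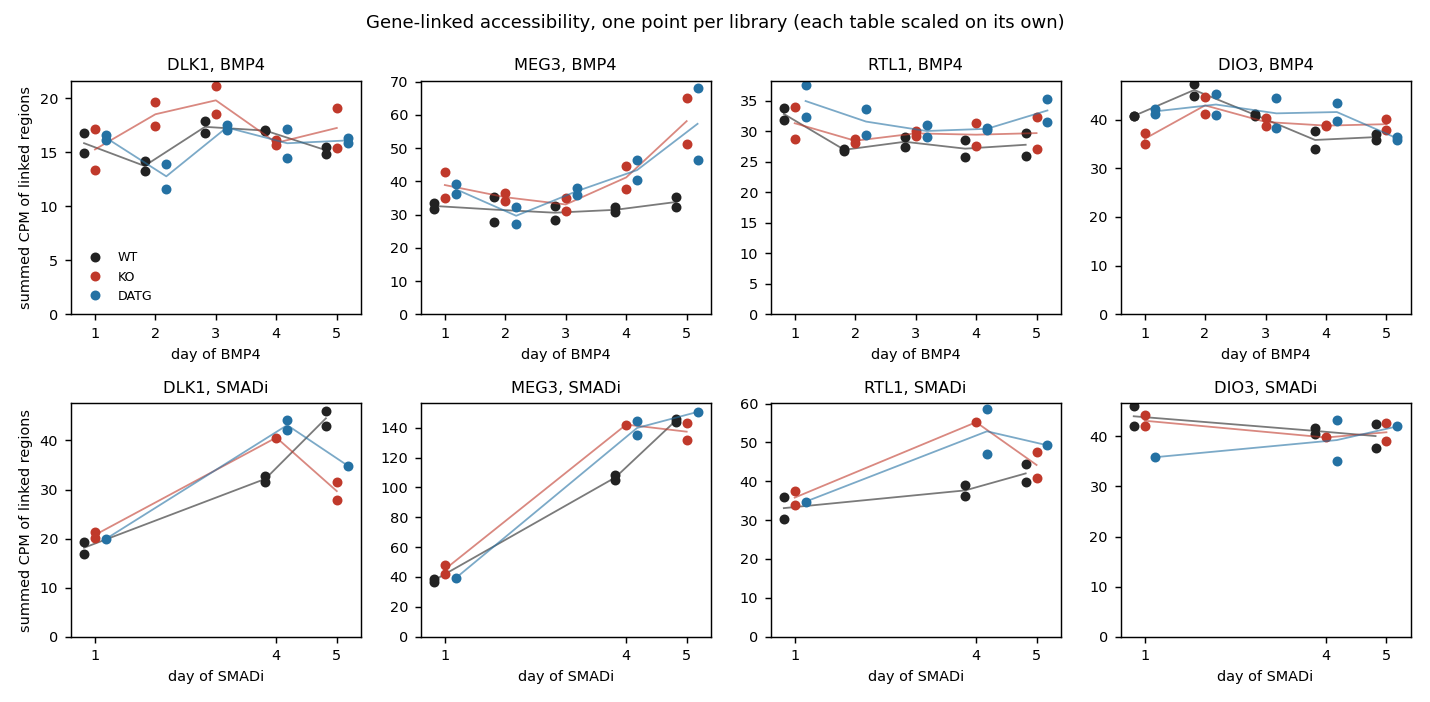
Summed CPM of the regions linked to DLK1, MEG3, RTL1 and DIO3, by day, under BMP4 (top) and SMADi (bottom). Points are libraries and lines join group means; the 2 tables hold different regions and were scaled separately, so levels are not comparable between rows. MEG3 sums at day 5 of BMP4 are 32.41 and 35.16 in WT and 46.5 to 68.16 in the mutant lines.

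Under BMP4 the lowest adjusted p between genotypes in the domain was inside MEG3. The region 14.2 kb inside the gene (chr14:100840242-100840442) held 2.03 and 3.23 CPM in WT, 3.85 and 2.39 in KO and 2.42 and 3.31 in DATG at day 1. At day 5 it held 3.83 and 3.65 in WT, 15.17 and 9.19 in KO and 8.91 and 12.17 in DATG. The groups overlapped at day 1, and from day 2 on every mutant library lay above every WT library of the same day. Averaged over days 1 to 5, it was higher by 0.93 ± 0.13 in KO (edgeR adjusted p = 1.045e-08) and 0.86 ± 0.13 in DATG (adjusted p = 8.79e-07). At day 5 alone the differences were 1.70 ± 0.24 (adjusted p = 1.753e-08) and 1.45 ± 0.26 (adjusted p = 0.0002033). Counted day by day, 0, 0, 1, 2 and 5 of the 24 members were called in KO on days 1 to 5, where 0.0549%, 2.19%, 5.9%, 4.88% and 15.8% of all regions were. In DATG 0, 0, 0, 1 and 1 were, against 0.0422%, 0.0859%, 1.85%, 0.695% and 4.66%.

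Only 1 other region of the domain was called higher in both lines under BMP4, 2.9 kb upstream of RTL1 (chr14:100906499-100906699). It held 4.76 and 6.57 CPM in WT, 6.80 and 5.73 in KO and 6.55 and 6.27 in DATG at day 1, and 4.14 and 3.42 in WT, 7.65 and 5.70 in KO and 6.79 and 5.71 in DATG at day 5. Mutant libraries were above WT on days 3 to 5 and overlapped with it on days 1 and 2. The mean difference was 0.46 ± 0.11 in KO (edgeR adjusted p = 0.001047) and 0.49 ± 0.11 in DATG (adjusted p = 0.001518). In all, 4 members were higher and none lower in KO (16.7% of 24, where 21.5% of all regions were called), and 3 were higher and none lower in DATG (12.5%, where 9.32% were called). The median log2 difference was 0.08 in KO and 0.10 in DATG, against 0.0053 and -0.0071 over all regions. The most accessible MEG3 region, 25.2 kb inside the gene, was higher in KO by 0.27 ± 0.10 (adjusted p = 0.03224), a call kept in 10 of 20 fits that left out 1 library, with adjusted p from 0.05158 to 0.2395 in the other 10, which left out WT day 1 a, KO day 1 a, WT day 2 a, KO day 2 b, WT day 3 a, KO day 3 a, WT day 4 b, KO day 4 b, WT day 5 b or KO day 5 a.

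**Figure D4:**
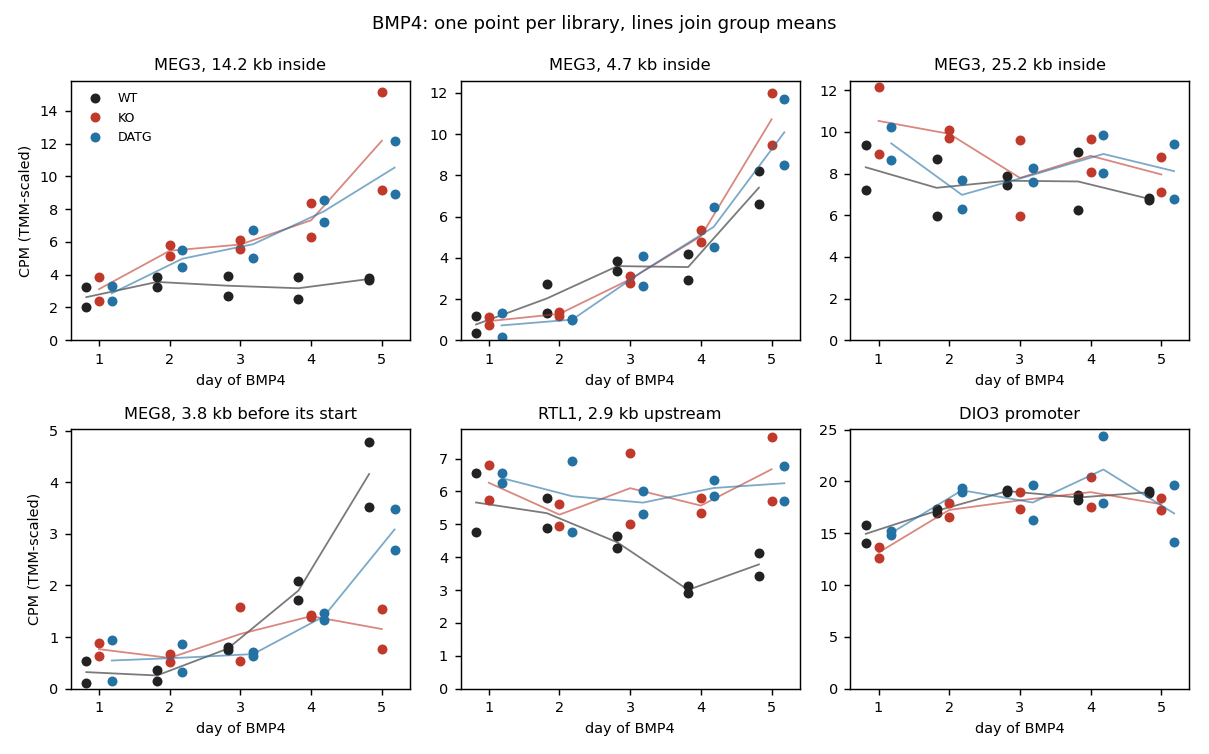
CPM (TMM-scaled) of 6 regions of the domain by day of BMP4. Points are libraries, lines join group means, and colours give WT, KO and DATG; the MEG3 region 14.2 kb inside the gene stays below 4 CPM in WT and goes to 8.91 or more in the mutant lines at day 5, while the MEG8 region goes up in WT.

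The region 4.7 kb inside MEG3 (chr14:100830749-100830949), which rose under SMADi in the mutant lines, rose in WT under BMP4. It held 0.35 and 1.18 CPM in WT at day 1 and 6.59 and 8.21 at day 5, a rise of 3.33 ± 0.35 (edgeR adjusted p = 7.64e-14), and reached 11.98 and 9.45 in KO and 8.49 and 11.68 in DATG at day 5. The 1 MEG8-linked region, 3.8 kb before the MEG8 start and inside RTL1 (chr14:100885720-100885920), held 0.53 and 0.11 CPM in WT at day 1 and 3.53 and 4.79 at day 5, a rise of 3.58 ± 0.47 (adjusted p = 4.412e-10). KO held 0.89 and 0.64, then 0.76 and 1.55, and DATG 0.14 and 0.95, then 2.69 and 3.48. These levels rest on few counts, 6 and 1 in WT at day 1 and 23 and 42 at day 5. In KO they were 6 and 4, then 6 and 12. At day 5 both KO libraries lay below all WT and DATG libraries. The region 1766 bp upstream of MEG3 held 8.02 and 6.14 CPM in WT at day 1 and 4.90 and 3.88 at day 5, a fall of 0.72 ± 0.24 (adjusted p = 0.01129). This was lost without WT day 1 replicate a (adjusted p = 0.2072) or WT day 5 replicate b (adjusted p = 0.2001). A region 405 bp past the DIO3 end fell by 0.95 ± 0.24. With these, 2 members rose and 2 fell in WT, or 16.7% of 24, where 34.9% of all regions changed. The DIO3 promoter region held 15.78 and 14.1 CPM at day 1 and 18.85 and 19.05 at day 5 in WT and was not called.

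The change from day 1 to day 5 of BMP4 was also compared between lines. In KO it exceeded the WT change at the regions 14.2 kb (1.42 ± 0.41) and 14.8 kb (1.78 ± 0.49) inside MEG3 and was smaller at the MEG8-linked region (-3.00 ± 0.86), with edgeR adjusted p of 0.04243, 0.03202 and 0.04069. That is 3 of 24 members, where 2.09% of all regions were called. DESeq2 called none of the 3 (adjusted p = 0.3042, 0.3197 and 0.2494), and 4 fits that each left out 1 library (KO day 1 replicate a, KO day 1 replicate b, WT day 5 replicate b or KO day 5 replicate a) gave no call. Summed per gene, the MEG8 difference was -2.94 ± 0.84 (adjusted p = 0.02159), where 6.44% of all genes were called. In DATG no member was called, where 0.076% of all regions were. There 2 of 24 had an unadjusted p under 0.05, DESeq2 called none, and no summed count was called, where 0.258% of all genes were.

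Summed per gene under BMP4, MEG3 was higher by 0.35 ± 0.06 in KO (edgeR adjusted p = 3.208e-05) and 0.32 ± 0.06 in DATG (adjusted p = 0.0003101), the latter lost with regions within 10 kb of a gene end (adjusted p = 0.139). Of all genes 26.5% were called in KO and 13% in DATG. WT MEG3 sums were 31.79 and 33.42 CPM on day 1 and 32.41 and 35.16 on day 5, while KO reached 65.1 and 51.18 and DATG 46.5 and 68.16. RTL1 was higher in DATG by 0.16 ± 0.05 (adjusted p = 0.02598) and DLK1, DIO3 and MEG8 were not called in either line when averaged over the days. The RTL1 call was lost with DESeq2 (adjusted p = 0.1135). At day 5 alone, an alternative chosen after the values were seen, MEG8 was lower in KO by 1.81 ± 0.38 (adjusted p = 0.0002111), where 20.8% of all genes were called. In DATG the day 5 difference was -0.48 ± 0.34 (adjusted p = 0.4428). Between days 1 and 5 of BMP4 in WT, MEG8 was the 1 gene of the 5 whose sum changed (3.50 ± 0.46), where 47.6% of all genes did. Marker sums differed between the lines at day 5 as well. The pluripotency sum was 200.7 to 218.2 CPM in WT, 257.2 to 262.7 in KO and 227.4 to 266.2 in DATG. The neuroectoderm sum was 530.5 to 559 CPM in WT, 694.2 to 713.5 in KO and 616.2 to 640.9 in DATG. The sum for 7 genes of primitive streak and mesoderm was 571.1 to 615 CPM in WT, 494.8 to 508 in KO and 506.8 to 526.5 in DATG. No marker of these lists was at 0, and their part in the results was not tested.

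Genes whose linked accessibility moved most like MEG3 or DLK1 across libraries are given as a description, since libraries of a table share treatment and day. Under SMADi (15 libraries) they were LOC100505978 (Pearson r = 0.998), LOC105371356 (0.993) and NEBL-AS1 (0.992) for MEG3, where the 99th percentile over 15744 genes was 0.968. For DLK1 they were NTF3 (0.979), NRIP2 (0.97) and KY (0.962). Under BMP4 (30 libraries) they were DRAIC (0.851), SEC31B (0.836) and LINC02048 (0.827) for MEG3, and ECHDC2 (0.653), DYRK4 (0.618) and UBL7 (0.604) for DLK1.

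Genes around and related to the domain were taken from 6 lists. In KO, these values include the library labelled KO day 1 replicate b. Of 15 chromosome 14 neighbours, 4 rose and 3 fell in KO between days 1 and 5 of SMADi, where 32% of all genes rose and 32.2% fell. MEG9, another maternally used lncRNA of the cluster, fell by 1.75 ± 0.21. In KO against WT under SMADi 4 were higher and 2 lower, where 20.3% and 24.1% of all genes were. BEGAIN, a neighbour of DLK1, was higher by 0.32 ± 0.08 (edgeR adjusted p = 0.001003) and DIO3OS, the antisense transcript at DIO3, by 0.24 ± 0.09 (adjusted p = 0.03255). Of 22 measured imprinted genes on other chromosomes, 10 rose and 5 fell in KO over the same course, where 32% of all genes rose and 32.2% fell. CDKN1C, a cell cycle inhibitor, rose by 0.57 ± 0.10, IGF2, a growth factor, rose by 0.52 ± 0.09, and PHLDA2, a placental growth restrainer, fell by 1.31 ± 0.11. The imprinted genes had a median of 0.11, against 0.0012 over all genes, and changes in both directions were common over all genes as well.

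Of 14 measured genes of imprint maintenance and DNA methylation, 6 rose and 3 fell in KO over the SMADi course, where 32% of all genes rose and 32.2% fell. The list's median was 0.18, against 0.0012 over all genes. ZFP57, the imprint-keeping factor whose core motif is marked in the MEG3 promoter, went against the list's median and fell by 1.06 ± 0.20 (edgeR adjusted p = 3.457e-05). It was lower in KO than in WT by 0.47 ± 0.13 (adjusted p = 0.003865) and in DATG by 0.35 ± 0.13 (adjusted p = 0.03897). A link between ZFP57 and MEG3 was not tested. Of 15 Notch genes, whose ligand family DLK1 resembles, 8 were higher and 1 lower in each mutant line than in WT under SMADi. Of all genes, 20.3% were higher and 24.1% lower in KO, and 13.9% and 19.8% in DATG. NOTCH1, a receptor, was higher by 0.53 ± 0.06 in KO and 0.45 ± 0.07 in DATG, and HES5, a target gene that is also on the neuroectoderm list, by 0.52 ± 0.06 and 0.50 ± 0.06. The Notch list's median was 0.18 in KO and 0.19 in DATG, against -8e-04 and -0.0066 over all genes.

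Under SMADi, 5 of 10 measured RTL genes, the retrotransposon-derived relatives of RTL1, were higher and none lower in either mutant line than in WT. Their median was 0.29 in KO and 0.24 in DATG. Of all genes, 20.3% were higher and 24.1% lower in KO, and 13.9% and 19.8% in DATG. RTL5 was higher by 0.36 ± 0.07 in KO, and RTL8A, which has near-identical copies in RTL8B and RTL8C, by 0.36 ± 0.07. Of 8 genes of thyroid hormone handling, which DIO3 belongs with, 3 were higher and 3 lower in KO under SMADi. In DATG 1 was higher and 3 were lower. DIO2, the deiodinase that activates the hormone, was lower by 1.04 ± 0.21 in KO and 1.10 ± 0.22 in DATG. At day 0 no gene of any of the 6 lists was called in either line. The shares of all genes called then were also small, 0.191% for KO against WT and 0.332% for DATG against WT. Nothing about the lists is read from this absence of calls. Under BMP4 the KO counts were 2 higher and 4 lower of the 15 neighbours, 4 and 0 of 21 imprinted genes, 0 and 2 of 13 methylation genes, 4 and 2 of 15 Notch genes, 0 and 1 of 8 thyroid genes and 2 and 2 of 10 RTL genes, where 13.1% of all genes were higher and 13.5% lower.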

How the data were processed

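Read counts per 201-bp region were deposited as 3 tables (day 0, BMP4, SMADi), each with its own regions. Peaks were called with MACS2 on GRCh38, per the submitters' processing notes; the sources used here do not give the aligner, tool versions, filters or any pooling for peak calling. All 51 libraries were matched to columns by title. Regions were assigned, from their start plus 100 bp, to the nearest RefSeq coding or lncRNA gene end within 50 kb. The genes, members and lists were chosen with earlier results of these data known. The rule for named regions was the most accessible and the start-nearest region of each gene and table.

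Regions and gene sums passing edgeR's filterByExpr (all members did) were fitted per table with edgeR 4.0.16 (R 4.3.3; TMM, quasi-likelihood, 1 mean per genotype and day, Benjamini-Hochberg over all regions or all genes, threshold 0.05). Standard errors are the log2 change over the square root of F. Groups with 1 library borrow the spread of the others. The procedure was tested on simulated data. Alternatives were DESeq2 1.42.0 (its size factors and its Wald test), total count scaling, no filter, a replicate block, a threshold of 0.01, gene sums over 10 kb or 1 kb, leaving out each library (with the dispersion trend of the full table), and, added after the values were seen, each day alone. RefSeq promoter sequences were found for MEG3, RTL1 and DIO3. Differences between the mutant and WT changes under SMADi contain the contrast that picked the genes and were not tested; differences on single SMADi days are described only.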

Additional observations from a re-analysis of the deposited data

Results flagged for a closer look

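In the BMP4 course, 3 regions differed between KO and WT in their change from day 1 to day 5, by the edgeR test of the difference itself: 1.42 and 1.78 on the log2 scale at the MEG3 regions 14.2 and 14.8 kb inside the gene and -3.00 at the MEG8-linked region. The summed counts of MEG8, which come from that 1 region alone, gave -2.94 (adjusted p = 0.02159). At day 1 that region had only 6 and 1 counts in WT and 6 and 4 in KO. None of these was called by DESeq2. In the SMADi course, both KO libraries of day 5 lay on the other side of the KO day 1 mean from where both WT libraries of day 5 lay of the WT day 1 mean at 3 regions. They were the region at the DLK1 start (0.86 in KO and -0.11 in WT), a region 314 bp inside DLK1 (0.87 in KO and -0.35 in WT) and a region 1278 bp inside RTL1 (-0.21 in KO and 0.61 in WT). These differences were not tested, because the WT change under SMADi picked the genes. Without the library labelled KO day 1 replicate b, the KO changes at these 3 regions were 1.16, 0.79 (adjusted p = 0.11) and -0.20.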

How the results depend on the processing

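Changing the processing left most results where they were. Among values of single regions and genes 2237 kept their side of the threshold, 70 lost it, 10 passed it and 1 reversed. Direction was compared only where either fit called the value, so reversals among values called in neither fit were not counted. Among counts of called members 189 stayed within 1.5 times and 29 did not. The reversed value was gene-linked RTL1, DATG against WT under BMP4, at -0.0576 (adjusted p = 0.8367) when regions within 1 kb of a gene end were summed. With those regions alone 3 gene-linked values were called, against 15 with all linked regions. MEG3 and MEG8 have no region that near a gene end, so their calls could not be tested this way. DESeq2's Wald test gave 2 calls for KO against WT under BMP4 (4 with edgeR) and 0 for the difference of the KO and WT changes (3 with edgeR). At an adjusted p under 0.01 these were 2 and 0, and under SMADi 7 were left in KO (of 12) and 4 in DATG (of 10). Single days of BMP4, an alternative chosen after seeing the data, gave 0, 0, 1 and 2 calls on days 1 to 4 in KO. In DATG they gave 0, 0, 0, 1 and 1 on days 1 to 5. Day 1 of SMADi gave 1 and 0, with the library labelled KO day 1 replicate b included. Leaving out each library gave 2 to 5 calls for KO and 2 to 5 for DATG against WT under BMP4 (5 without DATG day 5 a), with 2 in KO without KO day 1 a, WT day 2 a or KO day 5 a, 0 to 3 for the difference of changes, 9 to 17 for KO and 5 to 11 for DATG under SMADi (5 without WT day 1 a), and 19 to 24 for the KO change. Fitted with a replicate block, KO against WT under SMADi gave 11 calls, with the MEG3 region 4.7 kb inside the gene at adjusted p = 0.05209, and the other comparisons their own counts. The letters a and b name libraries and do not pair them: residuals of libraries with the same letter had correlations from -0.117 to 0.0261 at day 0, from -0.128 to 0.184 with BMP4 and from -0.185 to 0.167 with SMADi. At this depth simulated differences of 0.5 (log2) were found in 77% of cases for KO against WT under BMP4, 31% under SMADi and 5% for the KO change under SMADi. Each simulation changed 200 of 20000 regions. In the data 21.5%, 39.5% and 60.9% of all regions were called in these comparisons, so detection in the data can differ from these rates.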
